A study of Homo sapiens with 33 samples.

Results

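The 48 genes described here encode the kinetochore, the spindle assembly checkpoint and the mitotic kinases with their partners. They were chosen by gene symbol, as 48 of the 58302 genes of the deposited expression matrix, and every one of them was found once. Expression was measured by RNA-seq in 33 libraries of 6 human cell lines exposed to the CDK4/6 inhibitor palbociclib, and 48 of 48 genes passed the filter on low values that left 17803 genes. The 4 malignant pleural mesothelioma lines sensitive to the drug were H2052 with 2 pairs of libraries, and H2452, H28 and MSTO-211H with 3 pairs each. The other two lines were resistant, MPP89 with 2 pairs and MeT-5A with 1 pair and 1 untreated library. MPP89 is a mesothelioma line with a mutated RB1 gene, and MeT-5A is a non-tumour mesothelial line immortalized by SV40 that served as a model of pRb deficiency. Each pair set cells treated with 1 µM palbociclib against cells given 0.1% DMSO in the same experiment, for 9 days, or for 10 days in the last experiment of each sensitive line. In that last experiment 1 further dish of each sensitive line was washed free of palbociclib after 10 days and kept in drug-free medium for 48 h. The paired libraries of a line come from 1 established line, so they measure the spread between experiments and not between tumours.

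The values are CP20M, that is, read counts scaled to 20000000 per library and rounded up by the authors. The 33 columns summed to between 20007662 and 20021400. The original depth could be estimated from the smallest steps of the values in 23 libraries and lay between 12770000 and 19890000 reads, so that 1 read was worth at most 1.57 CP20M. Of the mesothelial markers in H28, KRT18 stood at 1497 to 2219 CP20M, KRT19 at 4295 to 11798 and WT1 at 107 to 360. LRRN4 was at 105 to 589 and UPK3B at 61 to 233 there. In the same line MSLN was at 1 to 15, and CALB2 and KRT5 were at 0 to 2. PDPN was at 0 to 4 and THBD at 0 to 11. In MeT-5A, WT1 was at 0 to 2, but CALB2 was at 397 to 534, PDPN at 200 to 325 and KRT18 at 15976 to 23548. KRT19 was at 0 to 3 in MeT-5A, 0 to 10 in MSTO-211H and 9 to 13 in MPP89. MSLN was at 76 to 167 in MeT-5A, 449 to 1113 in MSTO-211H and 2400 to 3068 in MPP89. WT1 was at 165 to 292 in MSTO-211H and 148 to 202 in MPP89, and PDPN at 0 to 3 and 12 to 20. CDH1, a marker of other epithelia, was at 529 to 1083 in MPP89, where EPCAM was at 19 to 47. Of the leukocyte markers, CD3E was at 0 in all libraries and PTPRC at 42 at most, in MPP89, while CD14 was at 133 to 1130 in H2452, 108 to 121 in MPP89, 112 to 117 in MeT-5A and 0 to 16 in the other lines. Fold changes are given as log2 of CP20M plus a pseudocount of 10, which understates the change of genes with low values. A gene was called when it differed by more than 1.5-fold with an adjusted p under 0.05 in limma.

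The kinetochore is the protein assembly on the centromere that holds spindle microtubules. Its inner layer, the constitutive centromere-associated network, sits on chromatin that carries the histone variant CENP-A, and its outer layer, with the MIS12 and NDC80 complexes, grips the microtubule. Unattached kinetochores recruit MPS1 (TTK), BUB and MAD proteins, whose signal holds back anaphase, while Aurora and Polo-like kinases correct faulty attachments and build the spindle. Most of these genes are transcribed late in the cell cycle, under the DREAM complex in resting cells and B-MYB with FOXM1 in G2, and palbociclib holds cells with functional pRb in G1. In a bulk sample, fewer dividing cells and less RNA per dividing cell cannot be told apart.

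The first question was how far palbociclib lowered these genes in the sensitive lines. Over the 11 pairs, 40 of the 48 genes fell, 0 rose and 8 were not called in limma, where 9.37% of all 17803 genes tested fell, 5.58% rose and 15% were called in either direction. The median log2 fold change was -1.60 over the 48 genes and -0.11 over all genes tested, with a range of -2.95 to 0.30 for the 48. In 34 of the 48 genes the palbociclib library was below its own DMSO library in 11 of 11 pairs, which held for 14.4% of all genes. For 9 genes, CENPH, NDC80, NUF2, SPC24, SPC25, MAD2L1, AURKB, PLK1 and NEK2, every palbociclib library lay below every DMSO library, whatever the line, as it did for 0.635% of all genes, and for 0 genes every one lay above, as it did for 0.0112%. For the other 39 the groups overlapped. Of the 8 genes not called, 6 had an adjusted p under 0.05 with less than a 1.5-fold change, and CENPP and MAD1L1 did not. The share of CP20M on mitochondrial genes was higher with palbociclib in 11 of 11 pairs, at 0.374% to 1.16% in DMSO and 0.403% to 2.37% with palbociclib, while in the resistant pairs it went from 0.446% to 0.461%, 1.04% to 1.18% and 0.787% to 0.734%. Its part in the fall of the genes was not tested.

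**Figure D1:**
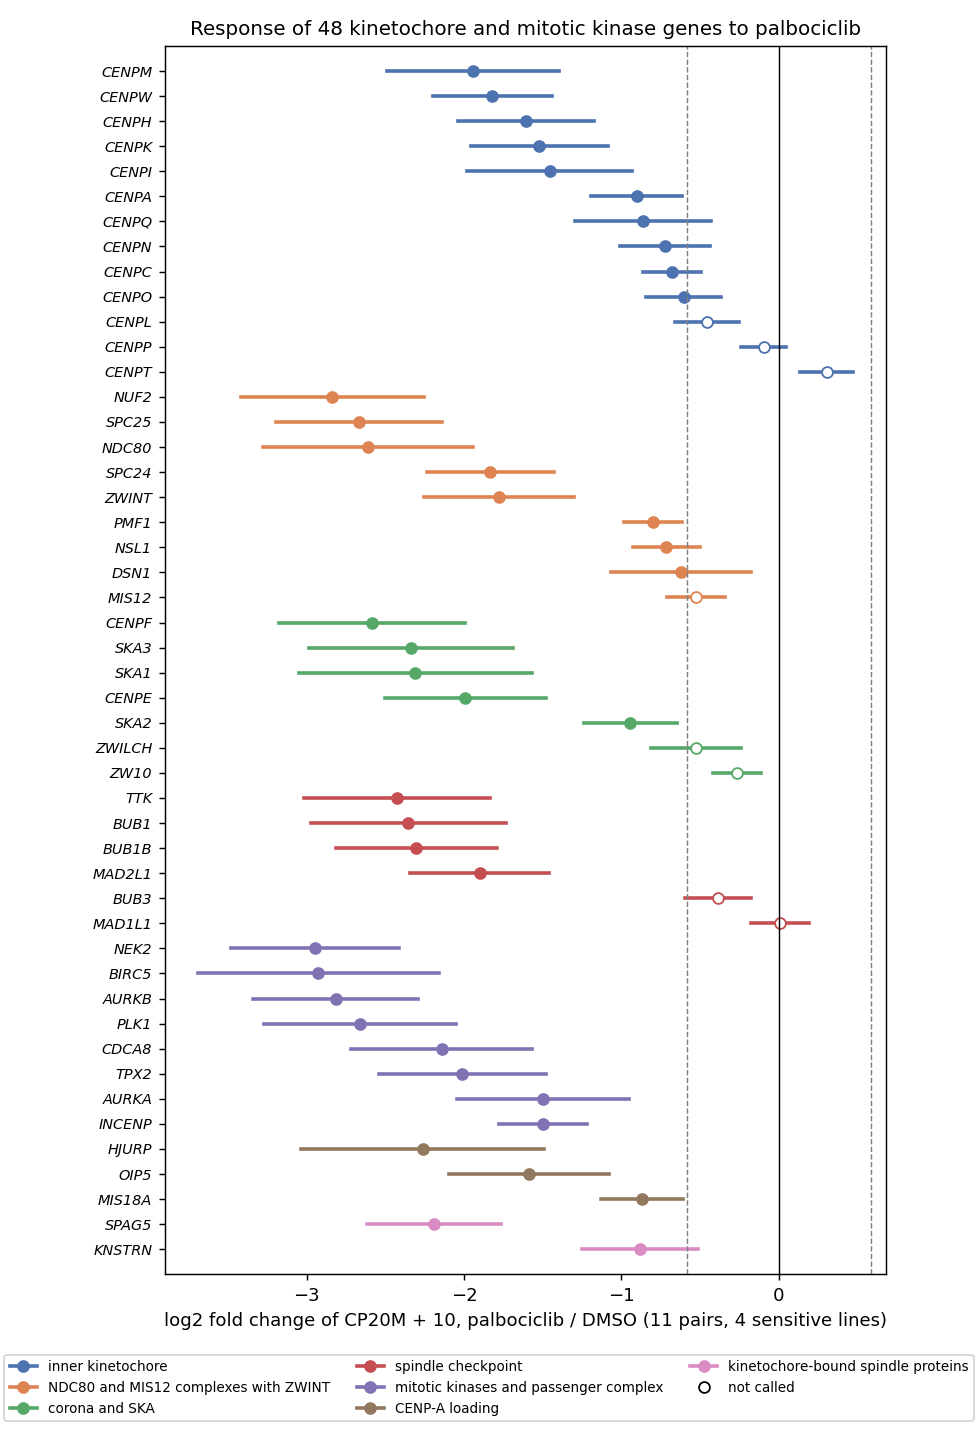
Log2 fold change of the 48 genes between palbociclib and DMSO over the 11 pairs of the sensitive lines, with 95% confidence intervals from limma, grouped by role. Dashed lines mark a 1.5-fold change, and the 8 genes not called, with open circles, lie between -0.53 and 0.30.

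The mitotic kinases and the chromosomal passenger complex fell in 8 of 8 genes, with a median log2 fold change of -2.40. The largest fall of the 48 genes was that of NEK2, a kinase that separates centrosomes (chr1:211658657-211675630, 9 exon blocks, GRCh38 with GENCODE annotation). NEK2 stood at 169 to 803 CP20M in the 11 DMSO libraries, with a median of 470, and at 9 to 149 in the 11 palbociclib libraries, with a median of 33. The groups did not overlap, and the log2 fold change was -2.95 (SE 0.25, 7.72-fold lower, adjusted p 2.14e-06 in limma). PLK1, the Polo-like kinase that acts from mitotic entry to cytokinesis (chr16:23677656-23690367), was at 778 to 2669 CP20M in DMSO, with a median of 1982, and at 69 to 624 with palbociclib, with a median of 259. Here too no palbociclib library reached the lowest DMSO library, and the log2 fold change was -2.66 (SE 0.28, 6.34-fold lower, adjusted p 1.15e-05 in limma). An annotated long non-coding RNA overlaps 11.6% of the exonic bases of PLK1.

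AURKB, the catalytic subunit of the passenger complex (chr17:8204733-8210600), was at 314 to 1113 CP20M in DMSO, with a median of 581, and at 24 to 208 with palbociclib, with a median of 100. Its groups did not overlap, and it fell by 2.82 on the log2 scale (SE 0.24, adjusted p 2.64e-06 in limma). BIRC5, which encodes survivin, another subunit (chr17:78214186-78225636), went from 795 to 3765 CP20M with a median of 2058 in DMSO to 36 to 861 with a median of 403. The lowest DMSO and highest palbociclib libraries of BIRC5 overlapped, and the log2 fold change was -2.93 (SE 0.36, 7.6-fold lower, adjusted p 3.06e-05 in limma). INCENP, the scaffold of that complex, fell less, with a log2 fold change of -1.50 (SE 0.13, adjusted p 2.64e-06 in limma), from 582 to 2818 CP20M with a median of 1544 to 307 to 925 with a median of 455. AURKA, the kinase of the spindle poles (chr20:56369389-56392337), was at 465 to 3288 CP20M in DMSO, with a median of 1347, and at 145 to 1069 with palbociclib, with a median of 593. The AURKA groups overlapped widely, and its log2 fold change was -1.50 (SE 0.25, adjusted p 0.000358 in limma), against -2.01 (adjusted p 3.29e-05) for TPX2, which activates it on the spindle.

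Among the 9 genes of the NDC80 and MIS12 complexes with ZWINT, 8 fell, but the complexes differed in size. The 4 subunits of the NDC80 complex, the microtubule coupler, had log2 fold changes between -2.84 and -1.83. The 4 subunits of the MIS12 complex, which joins NDC80 to the inner layer, had log2 fold changes between -0.80 and -0.53. Over the 11 pairs the ranges of the complexes did not overlap. By line they overlapped in H2052, at -2.84 to -1.07 for NDC80 and -1.13 to -0.56 for MIS12, and not in the other sensitive lines. NUF2 (chr1:163266576-163355764) was at 181 to 518 CP20M in DMSO, with a median of 378, and at 9 to 124 with palbociclib, with a median of 44. Its groups did not overlap, and the log2 fold change was -2.84 (SE 0.27, 7.15-fold lower, adjusted p 5.37e-06 in limma). MIS12 (chr17:5486285-5490814) was at 273 to 694 CP20M in DMSO and at 192 to 540 with palbociclib, with medians of 389 and 266. The groups overlapped, and the difference was the smallest of the role group, -0.53 on the log2 scale (SE 0.09, adjusted p 0.000262 in limma), 1.44-fold and so under the fold threshold. DSN1 of the same complex was called (log2 fold change -0.62, SE 0.21, adjusted p 0.0235 in limma), but lost the call in 11 of 24 alternatives.

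In the inner kinetochore 10 of 13 genes fell, with a median log2 fold change of -0.86, and the genes spread from -1.94 to 0.30. CENPM, a member of the CENP-H/I/K/M subcomplex (chr22:41938737-41947152), fell most, from 63 to 459 CP20M with a median of 258 in DMSO to 14 to 141 with a median of 71 (log2 fold change -1.94, SE 0.25, adjusted p 5.13e-05 in limma). CENPA, the centromeric histone itself (chr2:26764289-26801067), was at 228 to 1193 CP20M in DMSO, with a median of 544, and at 188 to 413 with palbociclib, with a median of 262. Its groups overlapped, its palbociclib library was the lower one in 10 of 11 pairs, and it fell by 0.90 on the log2 scale (SE 0.14, 1.87-fold, adjusted p 0.000143 in limma). CENPC, the DNA-bound organiser of the layer, fell by 0.68 (SE 0.09, adjusted p 4.33e-05 in limma), from 288 to 455 CP20M to 184 to 311.

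The genes CENPT, CENPP and CENPL of the inner layer were not called. CENPT (chr16:67828157-67847811), which like CENPC links the centromere to NDC80, was at 463 to 1602 CP20M in DMSO, with a median of 954, and at 525 to 2209 with palbociclib, with a median of 1265. The palbociclib library of CENPT was the lower one in 2 of 11 pairs, and its log2 fold change of 0.30 (SE 0.08, 1.23-fold, adjusted p 0.00595 in limma) was positive, in contrast to its partner CENPW at -1.82 (SE 0.18, adjusted p 5.69e-06). TSNAXIP1, on the other strand, overlaps 10.5% of the exonic bases of CENPT, and no source used here states whether the counting used strand. CENPP (chr9:92325953-92620529) was at 265 to 669 CP20M in DMSO and at 262 to 615 with palbociclib, with a log2 fold change of -0.10 (SE 0.07, adjusted p 0.245 in limma) that became 0.07 with median-of-ratios scaling. IPPK overlaps 39.9% of the exonic bases of CENPP. CENPL (chr1:173799550-173824883) was at 71 to 561 CP20M in DMSO and at 43 to 486 with palbociclib, with a log2 fold change of -0.46 (SE 0.09, 1.37-fold, adjusted p 0.0015 in limma).

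The fibrous corona and the SKA complex, which hold microtubule ends, had 5 of 7 genes down, with a median log2 fold change of -1.99. CENPF, a large corona protein (chr1:214603185-214664574), fell most, by 2.59 on the log2 scale (SE 0.28, 6-fold, adjusted p 1.15e-05 in limma), from 1406 to 10820 CP20M with a median of 4846 to 245 to 4102 with a median of 581. CENPF did not overlap within H28, which was at 10166 to 10820 in DMSO and 2137 to 4102 with palbociclib. These palbociclib values of H28 overlapped with the DMSO values of other lines, such as MSTO-211H at 1406, 2217 and 3858. The 2 genes not called, ZWILCH and ZW10, encode subunits of the RZZ complex, which loads dynein and MAD1 on the corona. ZWILCH (chr15:66504959-66550130) was at 281 to 1344 CP20M in DMSO and at 205 to 1140 with palbociclib, a log2 fold change of -0.53 (SE 0.13, adjusted p 0.00522 in limma), and it was called in 4 of 24 alternatives. ZW10 (chr11:113733187-113773735), which also acts in membrane traffic, was at 412 to 862 CP20M and 363 to 640, a log2 fold change of -0.27 (SE 0.07, adjusted p 0.00774 in limma). The other RZZ subunit, KNTC1 (ROD), which is not among the 48 genes, fell, from 573 to 2138 CP20M to 275 to 835 (log2 fold change -1.29, SE 0.17, adjusted p 5.11e-05 in limma).

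Of the 6 checkpoint genes, 4 fell. TTK, the kinase at the head of the checkpoint (chr6:80003887-80042527), was at 276 to 1106 CP20M in DMSO, with a median of 798, and at 29 to 403 with palbociclib, with a median of 119 (log2 fold change -2.43, SE 0.27, 5.37-fold lower, adjusted p 1.75e-05 in limma). BUB1, the kinase that its phosphorylation recruits (chr2:110637528-110678063), went from 750 to 2227 CP20M with a median of 1627 to 78 to 1026 with a median of 244 (log2 fold change -2.35, SE 0.29, 5.11-fold lower, adjusted p 3.1e-05 in limma). The groups of TTK and of BUB1 overlapped across lines. BUB3 and MAD1L1, the constitutive partners of BUB1 and of MAD2, were not called. BUB3 (chr10:123154402-123170467) was at 2298 to 5064 CP20M in DMSO and at 1714 to 3122 with palbociclib, a log2 fold change of -0.39 (SE 0.10, adjusted p 0.00505 in limma). MAD1L1 (chr7:1815793-2233243) was at 371 to 1317 CP20M in DMSO and at 380 to 1384 with palbociclib, with medians of 957 and 938 and a log2 fold change of 0.01 (SE 0.09, adjusted p 0.944 in limma). Its partner MAD2L1 went from 512 to 1232 CP20M to 61 to 473 without overlap, so within each of these partnerships one gene fell and the other was not called.

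The 3 factors that load CENP-A all fell. HJURP, its chaperone (chr2:233833416-233854566), went from 345 to 3495 CP20M with a median of 1167 to 47 to 788 with a median of 263, which overlapped across lines (log2 fold change -2.26, SE 0.36, 4.8-fold lower, adjusted p 0.000224 in limma). MIS18A, which marks the centromere for loading, had the smallest difference of the 3, from 262 to 588 CP20M to 132 to 353 (log2 fold change -0.87, SE 0.12, adjusted p 9.03e-05 in limma). The gene of OIP5 is overlapped by OIP5-AS1 over 63.2% of its exonic bases, so its fall of 1.59 on the log2 scale is uncertain. Both kinetochore-bound spindle proteins fell. SPAG5 (astrin) went from 546 to 2204 CP20M to 111 to 663 (log2 fold change -2.19, SE 0.20, 4.57-fold lower, adjusted p 3.79e-06 in limma), and KNSTRN, its kinastrin partner, from 298 to 1003 to 214 to 442 (log2 fold change -0.88, SE 0.17, adjusted p 0.000983 in limma).

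**Figure D2:**
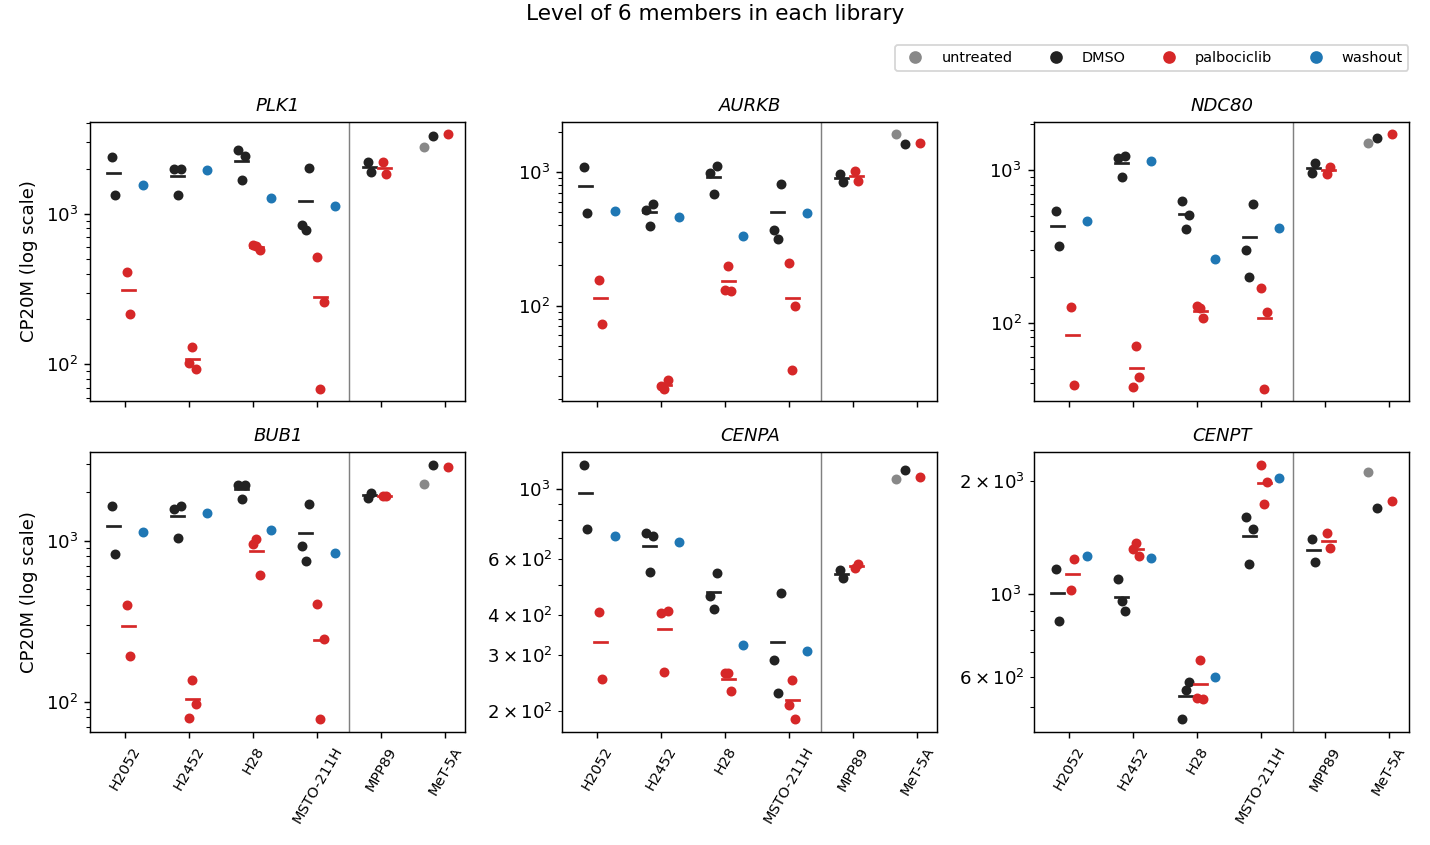
CP20M on a log axis in every library for PLK1, AURKB, NDC80, BUB1, CENPA and CENPT, by line and condition, with each point 1 library, bars at the mean where there is more than 1 library, and the resistant lines right of the vertical line. Over the sensitive lines the median of PLK1 is 1982 in DMSO and 259 with palbociclib, and that of CENPT 954 and 1265.

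Since the genes moved together, their promoters were searched for the cell cycle genes homology region (CHR), the element read by DREAM and B-MYB complexes, as TTTGAA or TTCGAA on either strand of the 250 bases before to 50 after the RefSeq start (GRCh38.p14). A promoter was listed for 39 of the 48 genes, 33 of them called down and 6 not. Either CHR sequence stood in 21 of the 33 (63.6%), in 1 of the 6, ZW10, and in 19.5% of all 27305 genes listed. TTTGAA stood in 18 of the 33 (54.5%) against 18.2% of all genes, and TTCGAA in 4 (12.1%) against 1.82%. Within 50 bases of the start, a window chosen after the positions were seen, either sequence began in 19 of the 33 (57.6%) and 0 of the 6, against 6.24% of all genes. The E2F sequences TTTCCCGC and TTTGGCGC stood in 2 of the 33, and in 1 of the 6, MIS12, against 2.75% of all genes. CCAAT stood in 21 of the 33 (63.6%), in 4 of the 6 (66.7%) and in 39.7% of all genes. None of these matches shows that a factor binds there.

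The stretches from 100 bases before to 30 after the start are given for NUF2, CENPW, BUB1 and NEK2, in each of 4 role groups the gene with the largest fall that had a listed promoter, for CENPT and MAD1L1, which were not called, and for PLK1, added after its match was seen. They show where the CHR letters, in capitals, sit in genes that fell and that NEK2, CENPT and MAD1L1 hold none in the stretch.
NUF2 promoter, chr1:163321854-163321983, strand +: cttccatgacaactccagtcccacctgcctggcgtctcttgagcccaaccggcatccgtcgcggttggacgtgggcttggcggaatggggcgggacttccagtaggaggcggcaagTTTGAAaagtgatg
CENPW promoter, chr6:126340015-126340144, strand +: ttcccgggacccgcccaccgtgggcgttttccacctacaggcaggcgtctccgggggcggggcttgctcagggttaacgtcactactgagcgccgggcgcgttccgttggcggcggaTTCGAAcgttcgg
CENPT promoter, chr16:67847664-67847793, strand -: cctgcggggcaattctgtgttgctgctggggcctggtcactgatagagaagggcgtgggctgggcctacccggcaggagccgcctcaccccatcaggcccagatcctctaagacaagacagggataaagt
BUB1 promoter, chr2:110678034-110678163, strand -: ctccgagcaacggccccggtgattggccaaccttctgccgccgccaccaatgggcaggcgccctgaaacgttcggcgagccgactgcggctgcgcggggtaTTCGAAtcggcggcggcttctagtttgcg
MAD1L1 promoter, chr7:2232916-2233045, strand -: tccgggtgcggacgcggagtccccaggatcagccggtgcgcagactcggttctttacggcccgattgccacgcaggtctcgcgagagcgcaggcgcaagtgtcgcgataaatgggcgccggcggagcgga
NEK2 promoter, chr1:211675592-211675721, strand -: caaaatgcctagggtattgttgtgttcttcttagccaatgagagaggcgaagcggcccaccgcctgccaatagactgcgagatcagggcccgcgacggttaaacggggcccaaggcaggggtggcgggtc
PLK1 promoter, chr16:23678789-23678918, strand +: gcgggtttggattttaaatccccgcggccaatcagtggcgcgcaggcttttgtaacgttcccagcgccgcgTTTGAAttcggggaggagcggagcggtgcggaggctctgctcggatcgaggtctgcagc
The CHR letters lie at bases 17 to 22 after the start in NUF2, at 18 to 23 in CENPW, at 2 to 7 in BUB1 and at -29 to -24 in PLK1. NEK2, with the largest fall, and AURKB had no match to either CHR sequence in the searched promoter, and both held CCAAT.

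**Figure D3:**
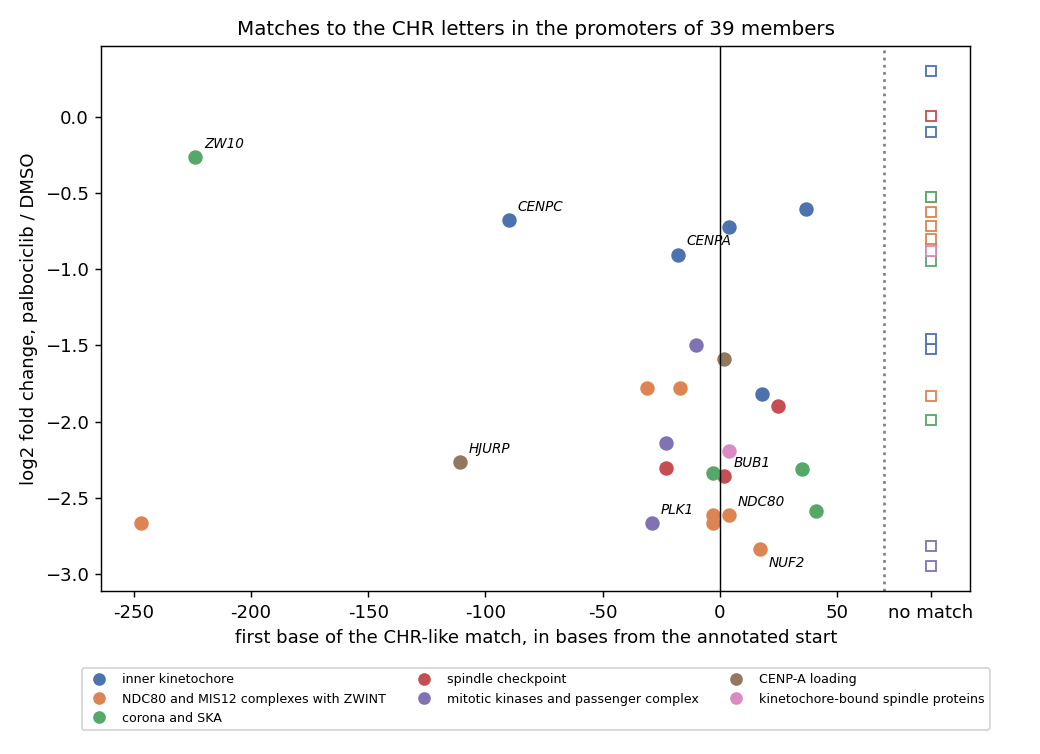
Log2 fold change over the 11 pairs against the distance in bases of each CHR match from the annotated start, for the 39 genes with a listed promoter. Open squares at the right are genes without a match, and filled circles cluster within 50 bases of the start, with ZW10 at -224 as the only match in a gene not called.

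The next question was whether the 4 sensitive lines responded alike. In H2452, 39 of the 48 genes fell and 0 rose, where 10.8% of all genes fell and 6.04% rose. In H2052 37 fell and 0 rose, beside 13% and 4.67% of all genes. In H28 33 fell and 0 rose, beside 7.34% and 5.89%, and in MSTO-211H 11 fell and 0 rose, beside 7.94% and 5.9%. The median log2 fold changes of the 48 genes were -2.56 in H2452, -1.50 in H2052, -1.48 in H28 and -0.96 in MSTO-211H. An F test across the lines in limma called 28 of the 48 genes (58.3%), beside 37.1% of all genes. H2452 had the lowest fold change of the 4 lines for 38 genes and MSTO-211H the highest for 31. BUB1, CENPF, INCENP, MAD2L1, SKA3, SPAG5, SPC24 and SPC25 were called in all 4 lines, 23 genes in 3, 6 in 2, 7 in 1, and CENPP, CENPT, MAD1L1 and ZW10 in none. The shares of all genes with the same order of lines or number of lines called are not given here. The counts by line rest on 2 or 3 pairs. They were 0 in H2452 without the first or the third pair, 0 in H28 and in MSTO-211H without any 1 pair, and 20 or 23 in H2052, and the F test called 15 genes without the first H2452 pair and 17 without the third.

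The MSTO-211H pairs differed among themselves. Their median log2 fold changes over the 48 genes were -0.46, -0.94 and -1.53, and 21, 31 and 38 genes lay more than 1.5-fold below DMSO. Of all genes tested, 23.6%, 13.4% and 20.2% lay that far below DMSO in the same pairs. PLK1 in MSTO-211H was at 848, 778 and 2004 CP20M in DMSO and at 515, 69 and 259 with palbociclib. It was lower in each of the 3 pairs by a log2 fold change of -2.31, but the spread was wide (adjusted p 0.0676 in limma), and in NDC80 it was likewise not called, at an adjusted p of 0.0505 in limma. With an unadjusted p under 0.05, 32 of the 48 genes passed in MSTO-211H, beside 7188 of all 17803 genes tested. In H2452, H28 and MSTO-211H the 10-day pair had the lowest median of its line, in H2052 it did not (-1.53 at 9 days and -1.41 at 10 days), and the length of treatment and the experiment cannot be told apart.

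**Figure D4:**
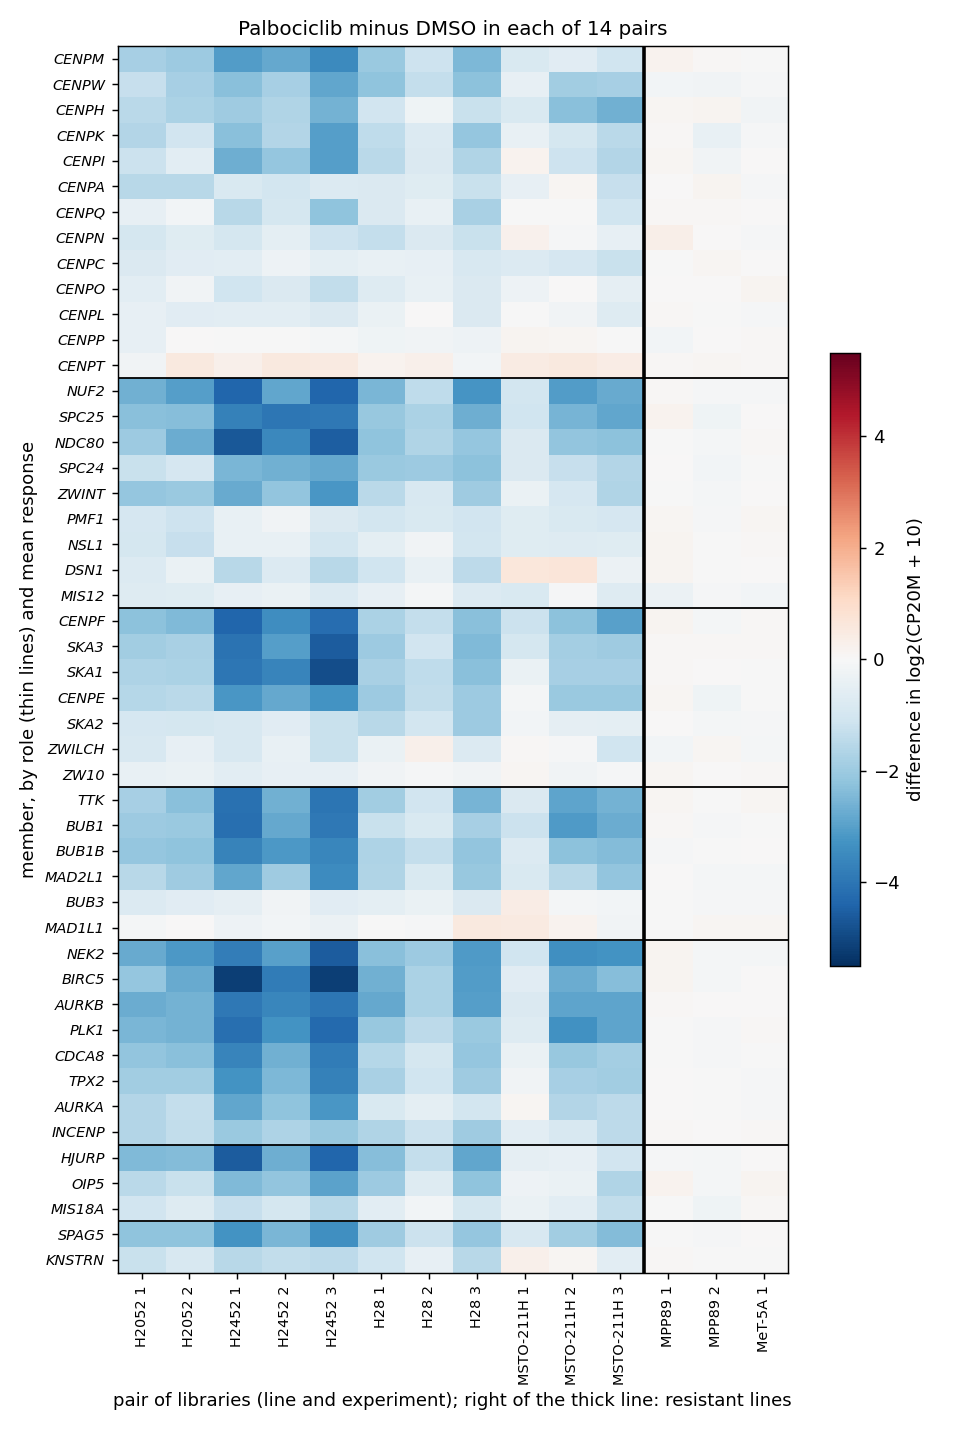
Log2 difference between palbociclib and DMSO in each of the 14 pairs for the 48 genes, on a colour scale. The medians run from -2.98 to -2.04 in H2452 and from -0.04 to 0.05 in MPP89.

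SPC24, a globular-end subunit of the NDC80 complex (chr19:11131520-11155807), had the smallest p of the F test (adjusted p 0.00081 in limma). In H2452 it stood at 2093, 1564 and 1989 CP20M in DMSO and 355, 239 and 271 with palbociclib, and in H2052 at 896 and 721 against 382 and 373. SPC24 did not overlap between conditions in either line, and its log2 fold changes were -2.67 in H2452, -2.11 in H28, -1.23 in MSTO-211H and -1.07 in H2052. SKA1, a microtubule-binding SKA subunit (chr18:50375040-50394168, F test adjusted p 0.00239 in limma), was at 832, 676 and 1016 CP20M against 43, 46 and 25 in H2452, and at 211, 148 and 431 against 161, 34 and 116 in MSTO-211H. Only the MSTO-211H libraries of SKA1 overlapped between these conditions, and its log2 fold changes were -4.16 in H2452, -1.83 in H28, -1.71 in H2052 and -1.34 in MSTO-211H. CENPM (F test adjusted p 0.0024 in limma) ranged from -3.13 in H2452 to -0.84 in MSTO-211H, where its libraries went from 153, 63 and 177 CP20M to 81, 38 and 78 and overlapped.

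DSN1, a MIS12 complex subunit (chr20:36751791-36773818), had a negative fold change in the other three lines and not in MSTO-211H. There DSN1 stood at 205, 128 and 321 CP20M in DMSO and at 325, 211 and 255 with palbociclib, an overlapping pair of groups with a log2 fold change of 0.33 (adjusted p 0.399 in limma). In H2452 it went from 633, 515 and 591 to 212, 301 and 199 (log2 fold change -1.27, adjusted p 0.0229 in limma). CENPA had its lowest fold change in H2052 instead, -1.53, where it went from 1193 and 747 CP20M to 408 and 252. In H2452 CENPA was at 726, 548 and 711 CP20M in DMSO and at 406, 265 and 413 with palbociclib, a log2 fold change of -0.87 against -3.90 for PLK1 and -4.74 for BIRC5 in the same libraries.

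The resistant lines carried a mutated RB1 gene or served as a model of pRb deficiency. In MPP89 0 of the 48 genes were called in limma, beside 0% of all genes, with 1 of the 48 and 918 of all genes at an unadjusted p under 0.05. Over both resistant lines 0 were called, again beside 0% of all genes, with 2 of the 48 and 1258 of all genes at an unadjusted p under 0.05. The median log2 fold change of the 48 genes over the resistant lines was -0.01, with a range of -0.18 to 0.09. In each of the 3 pairs 0 of the 48 differed by more than 1.5-fold. Of all genes tested, 0.27% to 0.5% were that far below DMSO in these pairs and 0.741% to 0.77% that far above, so few genes moved at all. PLK1 in MPP89 was at 2213 and 1907 CP20M in DMSO and at 2206 and 1847 with palbociclib, and in MeT-5A at 3271 in DMSO, 3378 with palbociclib and 2793 untreated. NUF2 was at 893 and 951 CP20M against 931 and 914 in MPP89, and at 1302 against 1248 in MeT-5A. AURKB was at 969 and 839 CP20M against 1018 and 861 in MPP89, and at 1630 against 1656 in MeT-5A. The palbociclib values of these genes in MPP89 lay within or close to the range of the DMSO values, and the log2 fold changes over both lines were -0.0014 for PLK1 (adjusted p 0.996 in limma), -0.02 for NUF2 and 0.04 for AURKB.

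The difference in response between the classes was then tested itself. It was called by adjusted p in limma for 30 of the 48 genes, all with the lower fold change in the sensitive lines, where 7.81% of all genes had it lower and 1.56% higher. The median difference over the 48 genes was -1.66 on the log2 scale, and -0.14 over all genes. By role, the difference was called for 7 of the 8 kinase and passenger genes, 7 of 9 in the NDC80 and MIS12 group, 4 of 6 checkpoint genes, 4 of 7 corona and SKA genes, 6 of 13 inner kinetochore genes and 1 each of the 3 loading and 2 spindle genes. NEK2 differed by -2.94 (adjusted p 0.00344 in limma), AURKB by -2.86 (adjusted p 0.00346) and INCENP by -1.54 (adjusted p 0.00333). AURKA, at -1.48 (adjusted p 0.0751 in limma), and HJURP, at -2.21 (adjusted p 0.0635), were not called, although both were called within the sensitive lines. These counts rest on 3 resistant pairs, from MPP89 and MeT-5A only. The pair and not the line was the unit of the test, so its p-values do not measure the spread between lines of a class. The difference was called for 4 genes without the first MPP89 pair, for 7 without the second and for 3 without the MeT-5A pair.

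Washout was compared with palbociclib and with DMSO of the same experiment, 1 library of each condition in each of the 4 lines. Against palbociclib, 23 of the 48 genes rose 48 h after washout and 0 fell in limma, where 1.4% of all genes rose and 0% fell. The median log2 difference was 1.56 over the 48 genes and 0.09 over all genes. By role, 7 of the 8 kinase and passenger genes rose, 4 of 6 checkpoint genes, 4 of 9 in the NDC80 and MIS12 group (0 of the 4 MIS12 complex subunits), 3 of 7 in the corona and SKA group and 3 of 13 in the inner kinetochore. Among the loading and spindle genes, 1 of 3 and 1 of 2 rose. The count was smaller when a line was left out: 8 genes rose without H28, and 0 without H2052, H2452 or MSTO-211H, where 36 to 43 had an unadjusted p under 0.05. The comparisons with palbociclib and with DMSO share the washout libraries.

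BIRC5 had the largest rise. In CP20M it went from 2800 in DMSO to 405 with palbociclib and 2784 after washout in H2052, from 1663 to 36 and 1937 in H2452, from 3115 to 362 and 1034 in H28, and from 2058 to 403 and 1382 in MSTO-211H. All 4 washout libraries of BIRC5 were above all 4 palbociclib libraries, a log2 difference of 2.85 (SE 0.54, 7.21-fold, adjusted p 0.0369 in limma). NEK2 went from 341 to 29 and 298 CP20M in H2052, from 470 to 10 and 442 in H2452, from 803 to 85 and 294 in H28, and from 411 to 33 and 170 in MSTO-211H. Its washout libraries too were all above its palbociclib libraries, by 2.81 on the log2 scale (SE 0.38, adjusted p 0.0132 in limma). NDC80, the gene of the complex's name (chr18:2571557-2616635), went from 318 to 39 and 465 CP20M in H2052, from 1247 to 44 and 1156 in H2452, from 506 to 108 and 263 in H28, and from 597 to 117 and 417 in MSTO-211H (log2 difference 2.67, SE 0.45, adjusted p 0.0241 in limma). PLK1 rose by 2.56 (adjusted p 0.0213 in limma), AURKB by 2.44 (adjusted p 0.0125), TTK by 2.31 (adjusted p 0.0217), BUB1 by 2.24 (adjusted p 0.0273) and CENPA by 0.83 (adjusted p 0.0485). The call of CENPA was lost in 10 of 12 alternatives. AURKA, with a log2 difference of 1.76, was not called (adjusted p 0.0583 in limma), nor was SKA1 at 2.51 (adjusted p 0.065).

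The lines stood at different levels after washout. The median of the 48 genes, as a percentage of the DMSO library, went from 37.6 with palbociclib to 118 after washout in H2052, from 12.7 to 95.7 in H2452, from 34.6 to 74.5 in MSTO-211H and from 25.6 to 50.1 in H28, while the median of all genes was between 93.1 and 100 after washout. In H28, 40 of the 48 genes were more than 1.5-fold below DMSO after washout, against 20 in MSTO-211H, 2 in H2452 and 1 in H2052. The share of all genes beyond that threshold is not given here. H28 had the lowest percentage of the 4 lines for 43 genes and H2052 the highest for 36, with no replicate of any washout. For this order too the share of all genes is not given. The share of CP20M on mitochondrial genes was 3.8% in the H28 washout library, 1.89% in its palbociclib library and 1.04% in its DMSO library, and its part in the lower level of H28 was not tested.

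**Figure D5:**
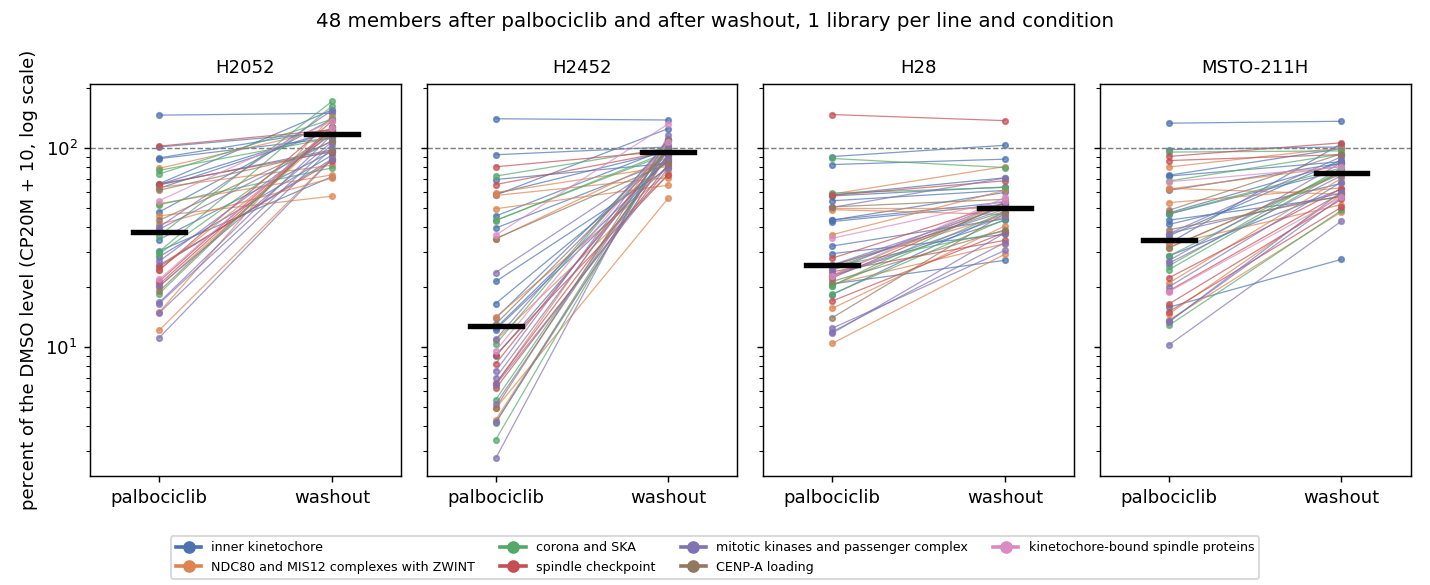
Level of the 48 genes as a percentage of the DMSO library of the same experiment, with palbociclib and 48 h after washout, in each sensitive line, from CP20M + 10 on a log axis, with 1 line per gene and a black bar at the median. The median returns to 118 in H2052 and 95.7 in H2452, and reaches 74.5 in MSTO-211H and 50.1 in H28.

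Against DMSO, 2 of the 48 genes were lower after washout in limma, where 5.76% of all genes were called, 2.95% lower and 2.81% higher, so their share was near that of all genes. Both belong to the MIS12 complex. PMF1 (chr1:156212993-156240042) went from 585 in DMSO to 261 with palbociclib and 330 after washout in H2052, from 575 to 327 and 405 CP20M in H2452, from 860 to 415 and 392 in H28, and from 564 to 294 and 351 in MSTO-211H. Its washout libraries were all below its DMSO libraries (log2 difference -0.77, SE 0.12, adjusted p 0.00684 in limma), although 23.3% of its exonic bases are shared with the read-through gene PMF1-BGLAP. NSL1 (chr1:212726153-212791782) went from 286 to 112 and 198 CP20M in H2052, from 326 to 156 and 208 in H2452, from 480 to 234 and 234 in H28, and from 351 to 216 and 201 in MSTO-211H (log2 difference -0.73, SE 0.15, adjusted p 0.0197 in limma). At an unadjusted p under 0.05, 9 of the 48 genes passed, beside 5265 of all 17803 genes tested. Without H2452 or H28 1 gene was called, and without H2052 or MSTO-211H 0.

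In DMSO, the levels of the resistant and the sensitive lines were compared, 2 lines against 4. Of the 48 genes 0 were called in limma, where 0.0899% of all genes were. An unadjusted p under 0.05 was found for 10 of the 48 and for 1532 of all 17803 genes tested. For 17 genes both resistant lines lay above all sensitive lines, beside 13.3% of all genes, and for 0 both lay below, beside 6.47%. The median difference was 0.76 on the log2 scale over the 48 genes and 0.15 over all genes. DSN1 was at 867 and 982 CP20M in MPP89 and 2271 in MeT-5A, with 128 to 895 in the sensitive lines, a log2 difference of line means of 1.65. NUF2 differed by 1.64 and TPX2 by 1.60. For each of the 3 the two-sided exact permutation p over the 6 lines was 0.0667, the smallest that 15 choices of lines allow. By CP20M per kb of exon, TPX2 stood at rank 1 of the 48 genes in all 6 lines, between 662 and 4053 CP20M per kb, and NSL1 at rank 47 in H2052 and 48 in the other five. The value of NSL1 was divided by 13867 annotated exonic bases, the most of the 48 genes, so its rank depends on that length.

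A list of 53 further genes of mitosis, of which 52 were tested, shows the surroundings. Over the 11 pairs 37 of the 52 fell and 0 rose, beside 9.37% and 5.58% of all genes. Their median log2 fold change was -1.16, and that of all genes tested -0.11. The largest falls were those of KIF2C, a kinesin that depolymerises microtubules (-2.95, adjusted p 1.19e-05 in limma), PTTG1, the inhibitor of separase (-2.81, adjusted p 9.57e-06), and DLGAP5, a spindle assembly factor (-2.77, adjusted p 1.15e-05). In the resistant lines 0 were called in limma, beside 0% of all genes. At an unadjusted p under 0.05 there were 2 of the 52 and 1258 of all 17803 genes tested. After washout 24 were above palbociclib, beside 1.4% of all genes. NEK7, a kinase that also acts in the inflammasome, was the only gene of the list called up in a line. It was at 1974, 2895 and 2453 CP20M in DMSO and at 3728, 3988 and 4001 with palbociclib in MSTO-211H, without overlap (log2 fold change 0.69, SE 0.12, adjusted p 0.0396 in limma), while it was lower in H28 (log2 fold change -0.63, adjusted p 0.0286).

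Outside both lists, the 5 genes whose log2 fold changes over the 11 pairs followed most closely the median of the 40 genes that fell were KIF18B, RNASEH2A, FOXM1, GTSE1 and ASF1B. Pearson's r was 0.985, 0.981, 0.98, 0.98 and 0.978, with mean log2 fold changes of -3.14, -1.14, -2.44, -2.52 and -1.95. The 11 pairs share 4 lines and the scaling of their libraries, so r is a description over these pairs.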

How the data were processed

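Libraries were made from total RNA with a directional kit and sequenced paired-end. According to the study's methods and processing notes, the authors trimmed reads with Trimmomatic 0.36, mapped them with STAR 2.5.3 to GRCh38 and counted them per Ensembl gene with HTSeq 0.9.1. The strand setting is not given in the sources used here. The deposited values are a score, CP20M, counts scaled to 20000000 per library and rounded up by the authors. They are not raw counts, so the authors' DESeq2 was not repeated. Genes with at least 100 CP20M in 1 of the 33 libraries (17803 of 58302) were fitted as log2(CP20M + 10) in limma 3.58.1 (lmFit, eBayes with trend, R 4.3.3), with the experiment as a block, and p-values were adjusted over all genes by Benjamini-Hochberg. A call needed more than 1.5-fold and an adjusted p under 0.05, or the p alone for differences in response. Pairing came from the experiment numbers in the labels. Same-numbered libraries of a line deviated together (r 0.18 to 0.78). Fits were tested on simulated data. Replicates held equal values in at most 4.33% of genes. Nothing states that experiments used separate cell stocks, so p-values measure only the spread between these samples.

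Members, gene lists and comparisons were chosen with earlier results of these data known. All 48 genes are covered by counts. Those named are, in each role group, the ones with the largest and smallest change, the genes not called, the leading genes of each comparison, and PLK1, AURKA, AURKB, BUB1, TTK and CENPA; a few others are named as partners of these and were chosen after their values were seen. Promoters came from RefSeq, with none listed for 9 of the 48 genes and more than 1 for 4. Exon overlaps were read from a GENCODE annotation of GRCh38. Scripts used Python 3.11.15, numpy 2.4.6, pandas 2.3.3 and matplotlib 3.10.9. Alternatives were other pseudocounts, filters and scalings, no mean-variance trend, no block, line means, and leaving out pairs or lines. The untreated MeT-5A library entered no test of palbociclib.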

Additional observations from a re-analysis of the deposited data

Results flagged for a closer look

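By the F test of the interaction in limma, the response to palbociclib differed among the 4 sensitive lines for 28 of the 48 genes. It differed for 37.1% of all genes tested. The smallest p of the 48 genes in that test were those of SPC24 (adjusted p 0.00081), SKA1 (adjusted p 0.00239) and CENPM (adjusted p 0.0024). H2452 had the lowest fold change of the 4 lines in all 3. Between the sensitive and the resistant lines the response differed for 30 of the 48 genes by the test of that difference in limma. That held for 9.37% of all genes tested, with the pair and not the line as the unit. After washout, 1 of the 4 lines stood apart from the others for CENPO and SPC24, by a gap beyond Dixon's critical value at the 95% level for 4 samples. The log2 difference between washout and palbociclib of CENPO was 1.12 in H2452 and 0.24 to 0.35 in the other lines, although ADCY3, on the other strand, overlaps 27.0% of its exonic bases and the counting's use of strand is not stated, and that of SPC24 was 2.42 in H2452 and 0.48 to 0.68 in the others. Chance gives such a gap in about 1 group in 20, and 48 genes were looked at.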

How the results depend on the processing

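Over the 11 pairs of the sensitive lines, the count of 40 genes became 35 with median-of-ratios scaling, 37 with upper-quartile scaling, 38 to 41 without 1 pair and 38 to 40 without 1 line. In the 24 alternatives 39 of the 48 genes kept direction and side of the threshold in all; CENPO, DSN1, CENPC, CENPN, NSL1 and CENPQ lost the call in some, and ZWILCH gained it in 4. In washout against palbociclib each of the 23 genes called lost the call in at least 4 of 12 alternatives. CENPA, CENPK, CENPM and HJURP lost it in 10 and SKA3 in 11, and OIP5 gained a call in 2. The counts by line depended on the settings more. In H2052, 37 became 18 with no filter, 0 with no trend (43 at an unadjusted p under 0.05), 19 with no replicate block, and 20 to 23 without 1 pair, where the lone pair is assumed to vary like those of the other lines. In H2452, 39 became 0 to 36 without 1 pair, and in H28, 33 became 0, where 34 to 44 still had an unadjusted p under 0.05 in H28. In MSTO-211H, 11 became 6 with a pseudocount of 1, 0 with no filter (34 at an unadjusted p under 0.05), 30 with the filter set within the fit, 5 with median-of-ratios scaling (4 down, 1 up), 7 with no trend, 7 with no replicate block, and 0 without 1 pair. The difference between classes was called for 3 to 37 genes without 1 pair in place of 30. The F test among lines called 18 genes with no filter, 11 with no replicate block and 15 to 28 without 1 pair, in place of 28. Washout against palbociclib gave 15 in place of 23 with median-of-ratios scaling, 15 with no trend, 0 with no replicate block (33 at an unadjusted p under 0.05) and 0 to 8 without 1 line. Washout against DMSO gave 0 with no replicate block and 0 to 1 without 1 line, in place of 2. In MPP89, over the resistant lines and between classes in DMSO, the count was 0 in every alternative. Where fewer libraries were fitted, the test had fewer degrees of freedom; for the other settings the cause was not tested.

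Alternatives gene by gene were run over the 11 pairs and for washout against palbociclib, and there signs turned in CENPP, MAD1L1 and CENPT, which were not called. CENPP, at -0.10 over the 11 pairs, became 0.07 with median-of-ratios and 0.02 with upper-quartile scaling. MAD1L1, at 0.01, became -0.05 without the third H28 pair, -0.04 and -0.01 without the first and second MSTO-211H pair, -0.04 without H28 and -0.05 without MSTO-211H. CENPT in washout against palbociclib, at 0.06, became -0.07 and -0.03 under those scalings. Median-of-ratios scaling shifted the centre of all genes tested (median log2 fold change) from -0.11 to 0.04 over the sensitive lines and from -0.24 to 0 in H2052. Depth was known for 23 of 33 libraries, and values under about 10 CP20M rest on few reads.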
